A study of Homo sapiens with 2 samples.

Results

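The nuclear-encoded respiratory chain genes were taken as the RefSeq protein-coding genes on chromosomes 1 to 22 (build GRCh38.p14, the assembly that hg38 names) whose symbols mark them as subunits of complexes I to V or as cytochrome c. There were 89 such genes among 19126 protein-coding genes on these chromosomes. Of these, 87 were found by current symbol, and 2 (NDUFA4 and NDUFA4L2) are listed by RefSeq as COXFA4 and COXFA4L2 and were found by their older symbols. By complex there were 36 genes of complex I, 4 of complex II, 10 of complex III, 1 for cytochrome c, 18 of complex IV and 20 of complex V. NDUFA4 and NDUFA4L2 were counted with complex IV. The readthrough genes NDUFC2-KCTD14 and ATP5MF-PTCD1 share a start with NDUFC2 and ATP5MF, so they are not independent of them.

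Chromatin immunoprecipitation followed by sequencing (ChIP-seq) of histone H4 acetylated at lysine 5 (H4K5ac), a mark of active chromatin, was done in FaDu cells, a squamous carcinoma line of the human hypopharynx. One library came from cells held in hypoxia (1% oxygen for 18 h), and the other from cells in normoxia. The growth protocol also mentions lentiviral knockdown of METTL4, but no label gives a knockdown to either library, and the series text names another acetylated histone residue than the sample labels, which are followed here. Each condition had 1 library, so no difference between them has a replicate check and no test was possible.

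The hypoxia list contained 258195 peaks covering 99.9 Mb and the normoxia list 120033 peaks covering 59.2 Mb, and this difference in length bears on every count below. Read totals are not stated, and the lowest local background was 3.24 reads in hypoxia among 1291 sampled peaks and 3.13 in normoxia among 601. The labelled cell type was checked against marker genes. All 12 squamous epithelial markers had a gene-end peak in hypoxia and 11 in normoxia (all but TP63), and 12 and 10 of them had a strong one, that is, one whose −log10 q-value reached 10. Of 8 haematopoietic markers 6 had any gene-end peak in hypoxia and 3 in normoxia, and 3 and 2 had a strong one. Of 9 endothelial and muscle markers 7 had any peak in hypoxia and 3 in normoxia, and 2 and 0 had a strong one. Over all protein-coding genes, 81.9% had any gene-end peak in hypoxia and 71.3% in normoxia, and 67.3% and 61.1% had a strong one.

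The respiratory chain moves electrons from NADH and succinate through complexes I, II and III, cytochrome c and complex IV to oxygen. Complexes I, III and IV pump protons, and complex V, the ATP synthase, uses the gradient to make ATP. Most subunits are encoded in the nucleus and are expressed in nearly all cells, and their promoters are classical targets of the factors NRF1, GABP (an ETS factor) and YY1. Some complex IV subunits have an isoform made in heart and skeletal muscle, lung or testis. In hypoxia, the hypoxia-inducible factors (HIF) are known to induce COX4I2, which replaces COX4I1 in complex IV, and NDUFA4L2, a paralogue of NDUFA4.

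The promoters of COX4I1, NDUFA4 and NDUFA4L2 are shown first, because the comparison of the conditions turns on the isoform pairs. The promoter of COX4I2 was not used here, since the promoter table used has no entry for it. Each sequence is the 250 bases before the RefSeq start (GRCh38.p14), written 5′ to 3′ on the strand of the gene. Capitals mark the letters TGCGCA (the NRF1 core), CCGGAAG (ETS), AAGATGG (YY1), ACGTG and GCGTG (the core of a hypoxia response element, HRE), GGGCGG (SP1) and CCAAT (NFY), on either strand. COX4I1 is the constitutive partner (chr16:85799445-85799694, plus strand), NDUFA4 the constitutive partner (chr7:10940154-10940403, minus strand) and NDUFA4L2 the hypoxia-linked partner of the other pair (chr12:57240763-57241012, minus strand).
COX4I1: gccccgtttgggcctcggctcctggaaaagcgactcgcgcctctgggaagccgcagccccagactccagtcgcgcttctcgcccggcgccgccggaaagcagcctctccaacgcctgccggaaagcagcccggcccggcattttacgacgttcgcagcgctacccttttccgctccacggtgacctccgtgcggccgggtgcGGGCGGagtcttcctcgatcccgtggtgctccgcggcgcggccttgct
NDUFA4: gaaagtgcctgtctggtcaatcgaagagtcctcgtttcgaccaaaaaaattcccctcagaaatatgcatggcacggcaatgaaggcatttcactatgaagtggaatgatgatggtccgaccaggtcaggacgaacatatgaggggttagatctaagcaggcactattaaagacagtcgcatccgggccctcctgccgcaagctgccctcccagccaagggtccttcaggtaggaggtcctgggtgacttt
NDUFA4L2: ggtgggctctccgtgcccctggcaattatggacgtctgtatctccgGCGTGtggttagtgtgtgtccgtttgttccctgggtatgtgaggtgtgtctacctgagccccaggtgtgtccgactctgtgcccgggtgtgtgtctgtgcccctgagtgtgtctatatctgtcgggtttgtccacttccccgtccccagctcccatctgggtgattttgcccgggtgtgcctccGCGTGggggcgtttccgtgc

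The NDUFA4L2 window held GCGTG at 204 and at 20 bases before the start. The NDUFA4 window held none of the letters searched, and that of COX4I1 held the SP1 letters once, 48 bases before the start. A match of letters is a description and not a site of binding.

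The muscle and somatic isoforms of subunit 6A, and the members with the highest fold in complex I and, in normoxia, in complex V, are shown for comparison. They are COX6A2 (chr16:31428361-31428610, minus strand), COX6A1 (chr12:120437863-120438112, plus strand), NDUFB4 (chr3:120596086-120596335, plus strand) and ATP5PF (chr21:25735055-25735304, minus strand).
COX6A2: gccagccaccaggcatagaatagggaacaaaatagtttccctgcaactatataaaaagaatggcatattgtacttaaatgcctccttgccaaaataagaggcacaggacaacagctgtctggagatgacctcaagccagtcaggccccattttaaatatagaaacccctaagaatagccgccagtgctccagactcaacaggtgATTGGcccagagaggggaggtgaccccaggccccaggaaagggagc
COX6A1: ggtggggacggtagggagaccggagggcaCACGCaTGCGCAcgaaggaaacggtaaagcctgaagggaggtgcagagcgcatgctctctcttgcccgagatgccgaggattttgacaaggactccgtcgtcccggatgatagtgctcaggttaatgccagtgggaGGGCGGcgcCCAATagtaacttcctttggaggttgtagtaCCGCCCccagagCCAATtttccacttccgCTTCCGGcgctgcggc
NDUFB4: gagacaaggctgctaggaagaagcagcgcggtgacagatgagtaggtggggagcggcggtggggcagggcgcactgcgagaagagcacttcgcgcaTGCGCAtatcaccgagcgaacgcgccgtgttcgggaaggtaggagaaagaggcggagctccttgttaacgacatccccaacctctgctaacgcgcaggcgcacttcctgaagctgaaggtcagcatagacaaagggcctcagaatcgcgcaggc
ATP5PF: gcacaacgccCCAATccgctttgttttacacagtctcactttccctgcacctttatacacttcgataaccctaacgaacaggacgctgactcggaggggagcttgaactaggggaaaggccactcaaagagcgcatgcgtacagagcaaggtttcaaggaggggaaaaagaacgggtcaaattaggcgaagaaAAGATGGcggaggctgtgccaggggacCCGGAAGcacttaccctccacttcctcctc

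COX6A1 held the NRF1 core, the ETS letters, GCGTG at 221 bases before the start (on the other strand), 2 SP1 and 2 NFY matches, whereas COX6A2 held a single NFY match. The window from 250 bases before to 50 after the start contained 5 CpG dinucleotides in COX6A2 and 22 in COX6A1. ATP5PF held the ETS letters at 30, the YY1 letters at 57 and the NFY letters at 240 bases before the start, and NDUFB4 held the NRF1 core at 154.

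The first comparison asked whether the genes of the chain carried H4K5ac at a gene end in hypoxia and in normoxia. A gene was counted as marked when a peak touched, by at least 1 bp, a window reaching 1000 bp to each side of its RefSeq start or end coordinate. Respiratory chain genes were nearly all marked in both conditions: 79 of 89 (88.8%) had a mark in both lists. Another 2 had it in hypoxia alone, 0 in normoxia alone, and 8 lacked it in both. Over all protein-coding genes the shares were 70.2%, 11.7%, 1.09% and 17.0%. In hypoxia 81 members (91.0%) were marked, against a background of 81.9% of all genes, and in normoxia 79 (88.8%), against 71.3%. A strong gene-end peak was present for 77 members (86.5%) in hypoxia and 73 (82.0%) in normoxia, where 67.3% and 61.1% of all genes had one.

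Complexes I, II, III and V and cytochrome c were marked in both libraries at 90.0% or more of their genes, and complex IV at 72.2%. The counts were 34 of 36 genes for complex I, 4 of 4 for complex II, 9 of 10 for complex III, 1 of 1 for cytochrome c, 13 of 18 for complex IV and 18 of 20 for complex V. The lower count in complex IV fell mainly on its isoform genes. Of the 7 isoform genes of muscle, lung, testis or hypoxia, 4 had a mark in both lists, COX6A2 had it in hypoxia alone, and COX4I2 and COX7B2 had none. Of the 11 other complex IV genes, 9 were marked in both, and the remaining 2 had peaks at an internal start.

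**Figure D1:**
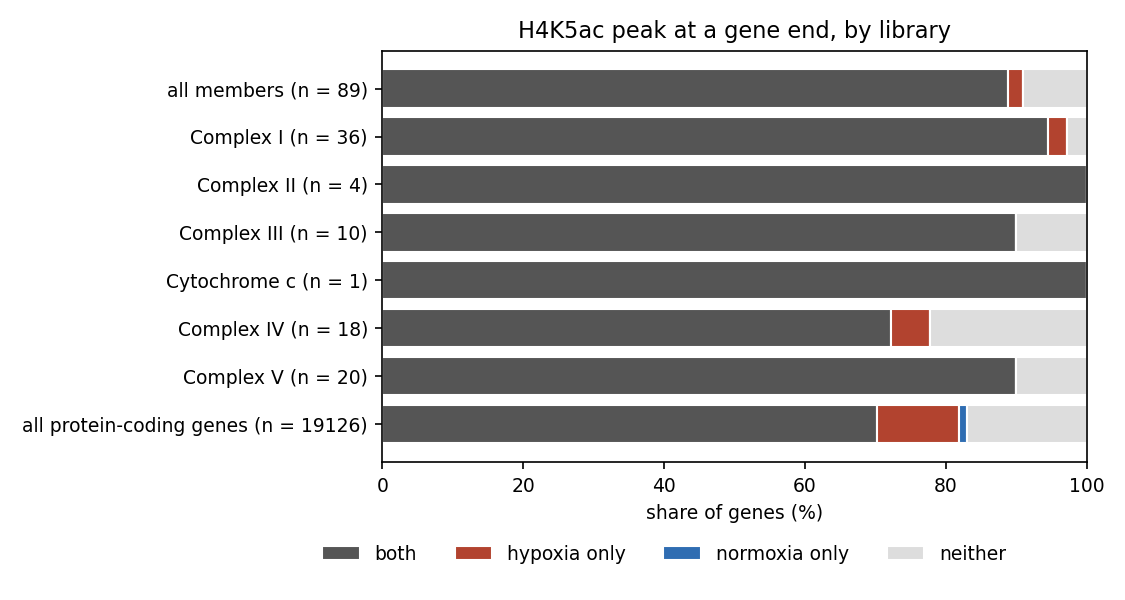
Share of genes (x axis, percent) with an H4K5ac peak at a gene end, split by the library or libraries that have it, for all members, each complex and all protein-coding genes (number of genes in parentheses). The share marked in both is 88.8% for the 89 members, 72.2% for complex IV and 70.2% for all genes.

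The isoform pairs named for the switch in hypoxia did not share a pattern. COX4I2, the hypoxia-linked isoform of subunit 4 (chromosome 20, 31637912 to 31645006), had no peak in either library within its span or the 1000 bp around it. The nearest peak lay 4507 bp from a gene end in hypoxia and 16252 bp away in normoxia. The constitutive COX4I1 (chromosome 16, 85799695 to 85807068) had its highest peak 184 bp after the start in hypoxia and 267 bp after it in normoxia. Its fold was 8.25 in hypoxia and 5.87 in normoxia, and a second peak lay before the start in each. The fold is the authors' enrichment at the summit over the background of the same library, so the values describe each list and do not measure a change.

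NDUFA4L2 (chromosome 12, 57234903 to 57240762), whose product is known to lower complex I activity in hypoxia, was marked in both conditions by a single peak just inside the gene. In hypoxia (57239901 to 57240698) its fold was 4.61, with 29.96 as −log10 q-value, and in normoxia (57239963 to 57240588) its fold was 3.70, with 11.2. Its summit lay 334 bp after the nearest listed start in hypoxia and 497 bp after it in normoxia. The reads covering the summit, solved from the fold and p-value, came to 91 in hypoxia (95% Poisson interval 73.3 to 111.7) over a local background of 19.0, and to 44 in normoxia (31.97 to 59.1) over 11.2. Summit and background coverage were thus both higher in the hypoxia library, and intervals cover counting error only. In both lists the fold lay below the median of all marked genes, 7.18 in hypoxia and 5.95 in normoxia.

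NDUFA4 (chromosome 7, 10931943 to 10940153), the partner of NDUFA4L2 and a subunit of complex IV, had the highest fold of its complex in both lists, 14.9 in hypoxia and 10.9 in normoxia. Its summit coverage was 157 reads in hypoxia (133.4 to 183.6) over a background of 9.61, and 112 in normoxia (92.2 to 134.8) over 9.41. The summit lay before the start, by 184 bp in hypoxia and 138 bp in normoxia. A weak second peak at the far end of NDUFA4 (fold 3.30, −log10 q-value 3.26) was present in the hypoxia list alone.

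**Figure D2:**
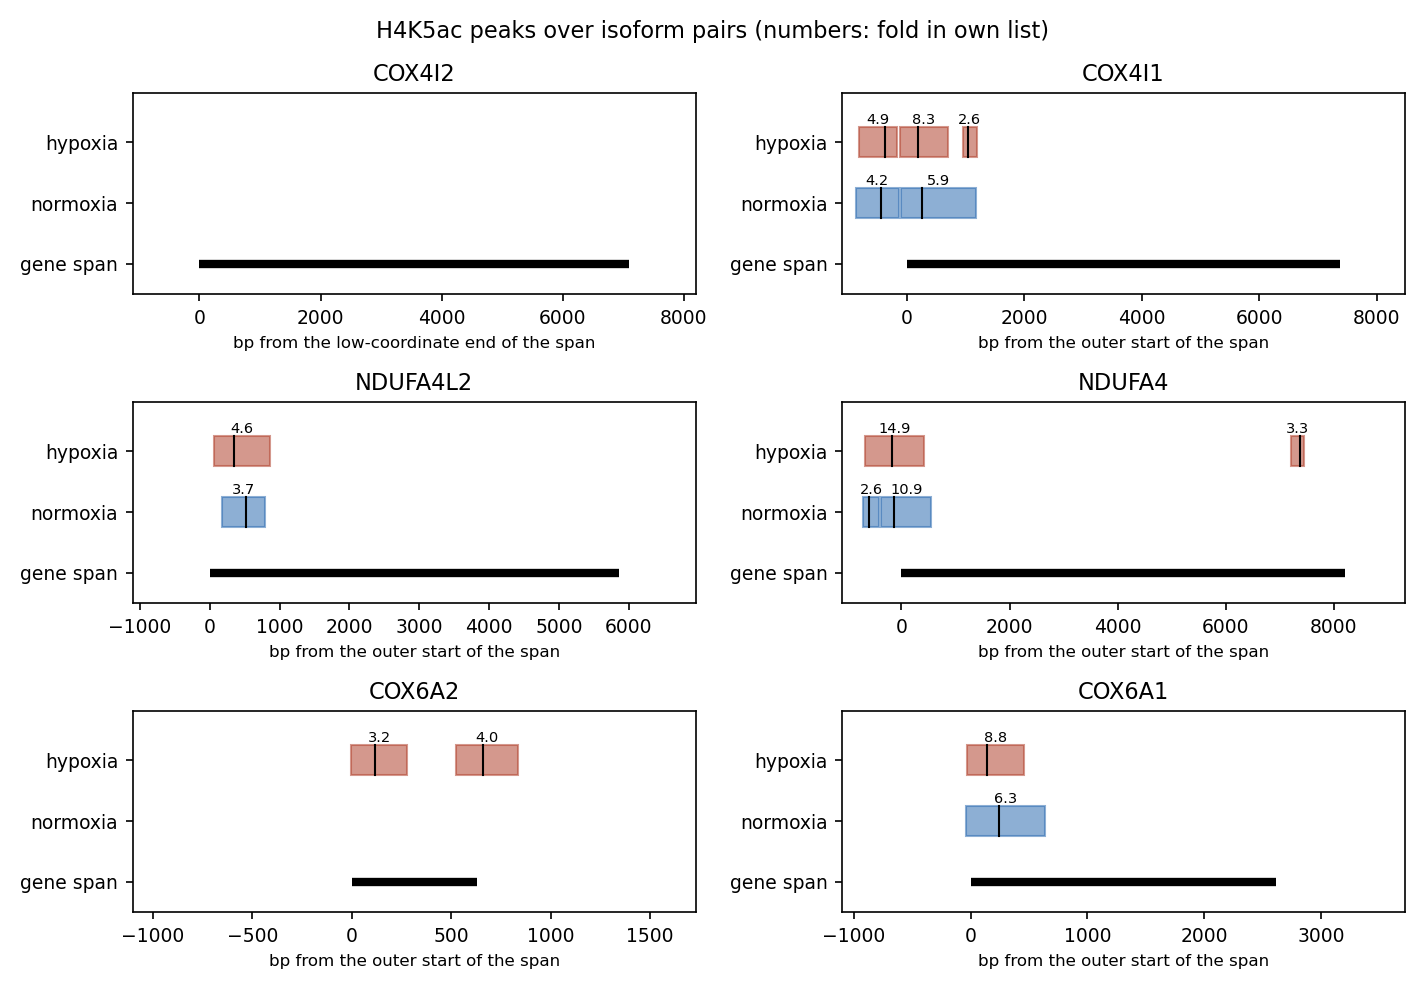
H4K5ac peaks over 3 isoform pairs (boxes, with the summit as a line and the fold in its own list above), with the hypoxia list above the normoxia list and the RefSeq gene span as a black bar. The x axis gives bp from the start of the span, or from its low-coordinate end for COX4I2; COX4I2 has no peak, NDUFA4L2 has 1 peak in each list, and COX6A2 has peaks in hypoxia alone.

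Of the remaining tissue isoforms of complex IV, COX8C alone had a strong gene-end peak, in hypoxia, and the others carried weaker gene-end peaks or none. COX6A2, the heart and skeletal muscle isoform of subunit 6A (chromosome 16, 31427731 to 31428360), had 2 hypoxia peaks with folds of 3.99 and 3.23 and no normoxia peak, the nearest lying 7334 bp from a gene end. Neither hypoxia peak was strong, with −log10 q-values of 9.32 and 5.44. COX6A1, its widely expressed partner, had a fold of 8.84 in hypoxia and 6.32 in normoxia.

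COX7A1, the muscle isoform of subunit 7A, was the one member marked in both lists whose leading peak was at the high-coordinate end in hypoxia and at the low-coordinate end in normoxia. The folds were 2.42 in hypoxia and 2.69 in normoxia, with −log10 q-values of 3.04 and 3.15. The normoxia peak lay 410 bp outside the span of COX7A1 and also within 1000 bp of an end of CAPNS1, so it cannot be assigned to 1 of these genes. The testis isoform COX6B2 had 2.67 in hypoxia and 2.06 in normoxia. Those gene-end peaks also lay within 1000 bp of an end of the neighbouring gene GARIN5B. Away from its ends, COX6B2 held a stronger peak in each list. That peak had a fold of 4.15 in hypoxia (−log10 q-value 26.8) and 3.37 in normoxia (10.9). Its partner COX6B1 also had low folds for a widely expressed subunit, at 3.61 in hypoxia and 4.65 in normoxia.

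COX8C, another testis isoform (chromosome 14, 93347182 to 93348356), had a peak of nearly equal width in both lists, 1002 bp in hypoxia and 997 bp in normoxia. The fold was 6.33 in hypoxia with a −log10 q-value of 31.5, and 2.796 in normoxia with 4.37. The coverage at the summit was 69 reads in hypoxia (53.7 to 87.3) over a background of 10.1, and 27 in normoxia (17.8 to 39.3) over 9.02. The intervals of the summit coverage did not overlap, while the backgrounds were close. The intervals cover counting error only and coverage was not scaled between the libraries, so a change between conditions was not tested. The somatic partner COX8A had folds of 8.75 in hypoxia and 7.12 in normoxia. COX7B2, a testis gene with a span of over 100 kb, held 5 weak hypoxia peaks far from its ends (folds 3.30 to 5.19, 13 to 21 reads at the summit) and no normoxia peak.

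The other unmarked members were of 2 kinds: intronless copies without any peak, and genes whose RefSeq span runs past the start that carried the peak. UQCRHL (chromosome 1) and ATP5MGL (chromosome 22), copies of UQCRH and ATP5MG, had no peak of either library in their span or the 1000 bp around it. Reads can be split between such copies and their source, so these counts are uncertain. NDUFA5, a supernumerary subunit of complex I, had its peak 131 bp after an internal start in hypoxia (fold 12.3) and 262 bp after it in normoxia (fold 9.89).

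COX7A2L, a factor that joins complexes III and IV, had folds of 14.9 in hypoxia and 6.40 in normoxia at an internal start. COX7A2 had 8.85 in hypoxia and 8.20 in normoxia, and ATP5MC2, a c-ring gene, had 7.71 and 6.08, also at internal starts. When a peak at a gene end or at any listed start was counted, a choice made after the data were seen, 83 of 89 members were marked in both conditions, against 73.4% of all genes. UQCRHL, COX4I2, COX6A2, COX7B2 and ATP5MGL were among the others.

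The folds of the marked members lay somewhat above those of all marked genes in the hypoxia list and close to them in the normoxia list. The median was 8.25 for 81 members in hypoxia against 7.18 for all marked genes, and 6.08 for 79 members in normoxia against 5.95. In hypoxia 56 of 81 marked members exceeded the median of all marked genes, and in normoxia 43 of 79 did. The order of members was partly kept between the lists, with a Spearman rho of 0.735 across 79 members marked in both, and 0.855 across 13433 genes. The highest peaks of the lists overlapped for 71 of the 79 members marked in both, and the folds of the others come from separate peaks. The points of each list share a library and its depth.

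**Figure D3:**
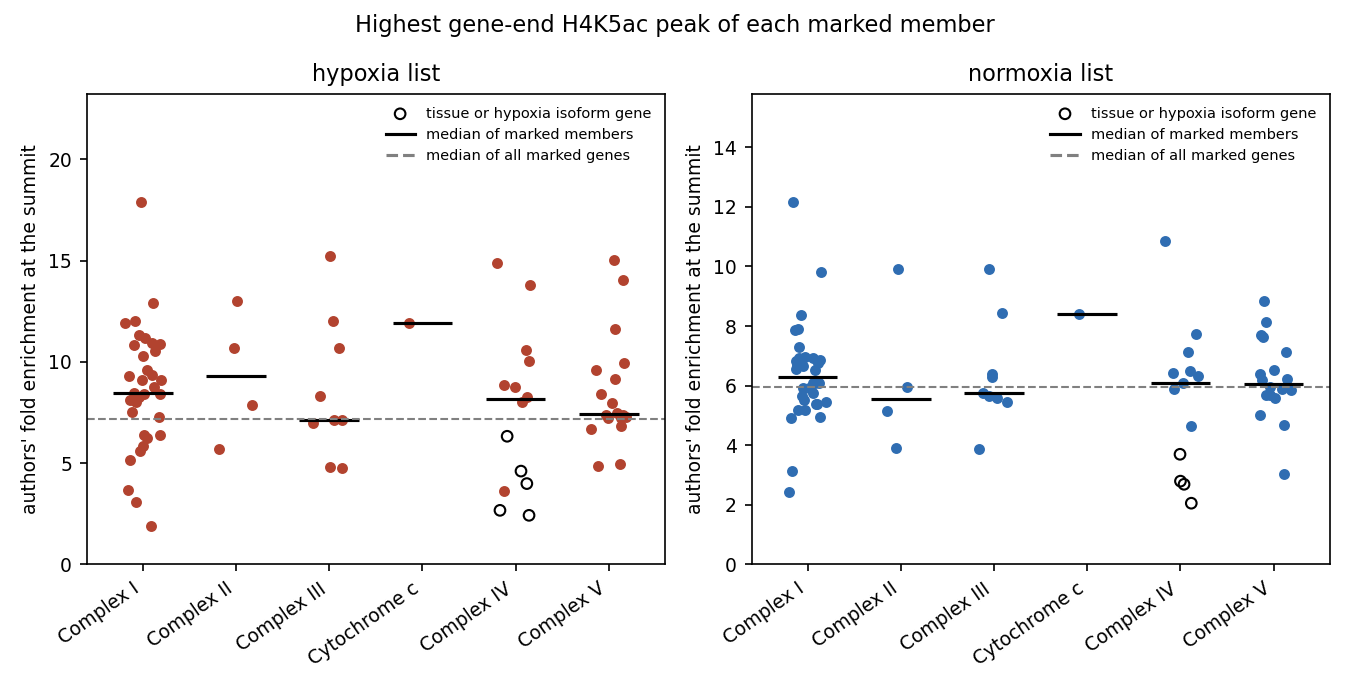
The authors' fold enrichment (y axis, linear, from 0, a separate scale for each list) of the highest gene-end peak of each marked member, by complex, with hypoxia on the left and normoxia on the right. Open circles are the isoform genes of complex IV, black lines the median of marked members and dashed lines the median of all marked genes (7.18 in hypoxia, 5.95 in normoxia); all open circles lie below the dashed lines.

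In complex I, NDUFB4, a membrane-arm subunit (chromosome 3, 120596336 to 120602507), had the highest fold of all members, 17.9 in hypoxia and 12.2 in normoxia. The 29 supernumerary genes had a median of 8.93 in hypoxia and 6.53 in normoxia over the 28 marked in each list. Among the core genes, which carry the flavin, the iron-sulfur clusters and the quinone site, NDUFV2 had 12.9 in hypoxia and 5.40 in normoxia, and NDUFS8 had 3.65 and 3.14. The low fold of NDUFS8 (chromosome 11, 68030681 to 68036644) came with many reads, 212 in hypoxia over a local background of 57.3 and 135 in normoxia over 42.3. That peak lay before the start and also within 1000 bp of an end of ALDH3B1. NDUFB10, the lowest in normoxia, likewise had folds of 3.06 in hypoxia and 2.44 in normoxia over backgrounds of 41.8 and 30.6. Its summit coverage was 130 reads in hypoxia and 76 in normoxia. Over the marked members the median coverage was 119 reads in hypoxia and 93 in normoxia, and the median background 12.5 and 12.9. NDUFS8 thus lay above the median coverage in both lists, and NDUFB10 in hypoxia but not in normoxia.

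Complex II, which oxidises succinate, was marked at all 4 genes in both conditions. SDHA, the flavoprotein, had a fold of 7.89 in hypoxia and 5.15 in normoxia. SDHB, the iron-sulfur subunit, had the lowest folds of the complex, 5.70 in hypoxia and 3.90 in normoxia. Its normoxia peak was not strong (−log10 q-value 8.37). The 2 SDHB folds come from separate peaks, with the summit 535 bp before the start in hypoxia and 144 bp after it in normoxia. The membrane anchors had higher folds, SDHC 13.0 in hypoxia and 9.93 in normoxia, and SDHD 10.7 and 5.95. SDHD had 90 reads at the summit in hypoxia (72.4 to 110.6) over a background of 7.504, and 77 in normoxia (60.8 to 96.2) over 12.1, so its coverage intervals overlapped where its folds stood apart. The SDHD peak also lay within 1000 bp of an end of each of its neighbours TIMM8B and NKAPD1.

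In complex III the Rieske protein gene UQCRFS1 had the highest folds, 15.2 in hypoxia and 9.91 in normoxia. CYC1, the cytochrome c1 gene, had 7.00 in hypoxia and 6.38 in normoxia. UQCR11 had the lowest fold in hypoxia (4.77, against 5.46 in normoxia) and UQCRH the lowest in normoxia (3.86, against 4.79 in hypoxia). UQCRH combined this low fold with a peak of over 2000 bp in each list. The summit had 285 reads in hypoxia and 182 in normoxia. The peak lay before the start and within 1000 bp of an end of LRRC41. CYCS, which encodes the mobile carrier cytochrome c, had a fold of 11.9 in hypoxia and 8.42 in normoxia.

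In the ATP synthase, all 5 genes of the F1 subunits, all 4 of the peripheral stalk and all 5 of the small membrane subunits were marked in both conditions. ATP5F1E, the epsilon subunit of F1, had the highest fold in hypoxia, 15.04 against 8.13 in normoxia. ATP5F1D, the delta subunit, had the lowest in hypoxia, 4.87 against 4.68 in normoxia. ATP5PF, a stalk subunit, had the highest in normoxia, 8.84 with 14.1 in hypoxia. Its peak also lay within 1000 bp of an end of the divergent gene GABPA, which encodes the DNA-binding subunit of GABP. ATP5IF1, the inhibitor of ATP hydrolysis, had 4.94 in hypoxia and the lowest fold of the complex in normoxia, 3.05. Its normoxia peak was not strong (−log10 q-value 7.38). The ATP5IF1 folds come from separate peaks, with the summit after the start in hypoxia and before the start in normoxia.

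The peaks lay mostly at the starts of the genes and often also lay near an end of another gene. RefSeq starts were listed for 71 members, and a peak lay within 1000 bp of one for 70 of them in hypoxia (82.2% over all genes) and 69 in normoxia (73.4%). The highest peak of a member lay at its start for 61 members in each list and at the far end for 2, NDUFA7 and NDUFB6. There it also lay within 1000 bp of an end of CD320 or TOPORS, respectively. Summits lay on both sides of the start. The median was 155.5 bp after it in hypoxia (64 members) and 189 bp in normoxia (63 members), against 145 and 164 bp for all genes. The summit lay after the start for 42 members in hypoxia (65.6%) and 44 in normoxia (69.8%). Over all genes the shares were 63.9% and 63.7%. Only 2 members in hypoxia and 0 in normoxia had a summit within 100 bp of a start, where 8.89% and 7.00% of all genes did.

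**Figure D4:**
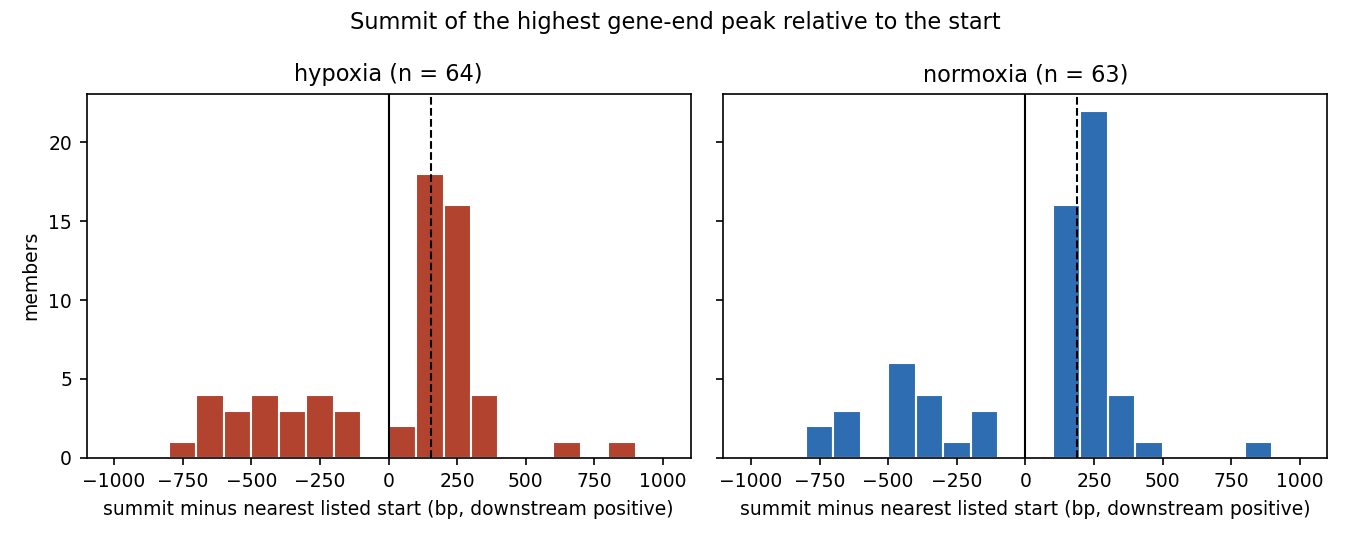
Number of members (y axis) by the distance of the summit of their highest gene-end peak from the nearest listed start (x axis, bp in bins of 100, downstream positive), in hypoxia (64 members) and in normoxia (63 members). The solid line is the start and the dashed line the median, 155.5 bp in hypoxia and 189 bp in normoxia; few summits lie at the start itself.

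Peaks on both sides of the start, as at COX4I1, were common. Of the 70 members with a hypoxia peak within 1000 bp of a listed start, 35 had 1 summit before and 1 after the outer start, and of the 69 in normoxia 31 (44.9%) did. The shares over all genes were 33.5% in hypoxia and 33.4% in normoxia. The highest peak of some members also lay within 1000 bp of an end of another protein-coding gene. This held for 37 of 81 marked members in hypoxia (45.7%) and 37 of 79 in normoxia (46.8%). Over all marked genes the shares were 25.4% and 27.8%. For these members the peak cannot be assigned to 1 of the genes. They include the readthrough genes and the genes whose start those share, and the strand of the other gene was not considered.

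A second gene end was marked more often in the hypoxia list, but not once the lists were brought to equal length. Among the 81 members with a span of at least 2000 bp, 23 (28.4%) had peaks at both ends in hypoxia and 7 (8.64%) in normoxia. The background was 20.6% of all genes of that span in hypoxia and 9.97% in normoxia. With the 120033 hypoxia peaks of lowest p-value alone, both ends were marked for 7 members (8.64%), against 10.8% of all genes. Both ends in hypoxia and 1 in normoxia were found for 17 members (21.0%; background 11.0%), and the converse for ATP5PB alone (background 2.03%).

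None of the 17 added peaks was strong, with folds of 1.85 to 3.87 and a median width of 238 bp. In all 14 cases where the start was listed, the end marked in normoxia was the start, so the added peak could only lie at the far end. The highest folds belonged to ATP5F1A, the alpha subunit of the ATP synthase head (3.87), ATP5F1E (3.54), COX6C (3.50), NDUFA4 (3.30) and NDUFA10 (3.14). These peaks rested on 13 to 18 reads at the summit. Of the 17, 9 were in complex I genes, which made up 36 of the 81 members with a span of at least 2000 bp. Within the spans of all members and the 1000 bp around them, the lists held 320 hypoxia and 191 normoxia peaks, a ratio of 1.68, against 1.99 over all genes.

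The letters of NRF1, ETS and YY1 were present in a higher share of member promoters than of all promoters, a description for which no test was run. One promoter per gene was used, the outermost listed start, for 71 members and 15101 genes, from 250 bases before to 50 after the start. For NDUFA5, COX7A2 and COX7A2L, whose peak lay at an internal start, the outermost start had no peak within 1000 bp in either list. TGCGCA, the NRF1 core, was present in 20 members (28.2%) and 10.6% of all promoters. CCGGAAG, the ETS letters, was present in 19 members (26.8%) and 14.3% of all, and AAGATGG, the YY1 letters, in 16 (22.5%) and 6.28%. The HRE core ACGTG was present in 18 members (25.4%) and 23.5% of all, and GCGTG in 34 (47.9%) and 44.0%. GGGCGG was present in 40 members (56.3%) and 58.7% of all, and CCAAT in 24 (33.8%) and 36.1%. The HRE, SP1 and NFY letters were thus about as frequent in members as elsewhere. The median promoter held 23 CpG dinucleotides in members and 22 over all genes, a difference of 1 at the median.

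**Figure D5:**
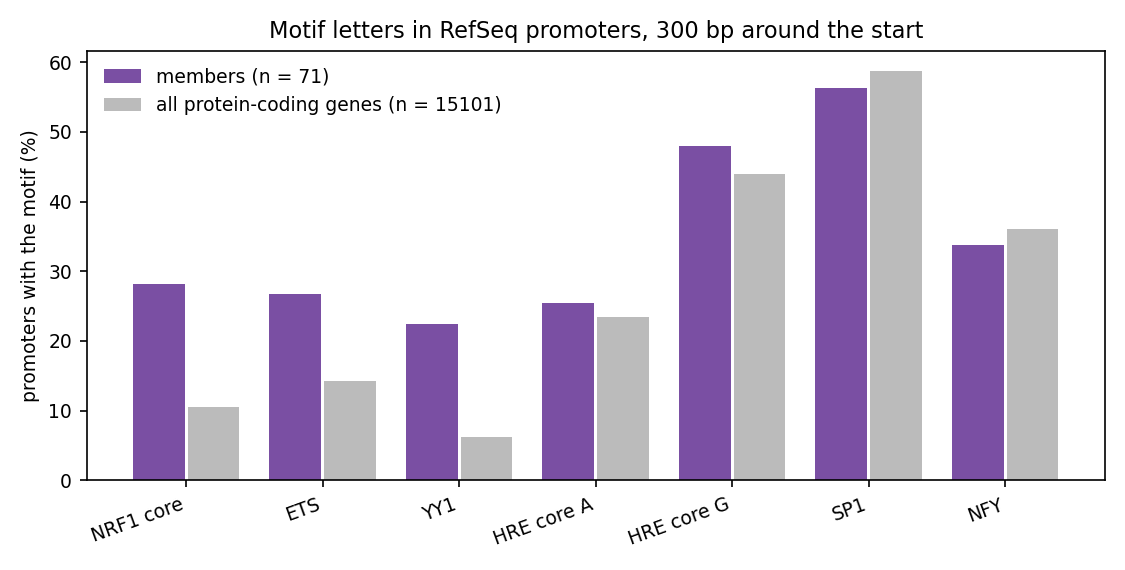
Share of promoters (y axis, percent, from 0) that hold the letters of each motif on either strand, for 71 members and for 15101 protein-coding genes, in the 300 bp around the RefSeq start. NRF1, ETS and YY1 letters are found in 28.2%, 26.8% and 22.5% of member promoters, against 10.6%, 14.3% and 6.28% of all.

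Genes that build or regulate the chain were set beside the 70.2% of all genes marked in both conditions. All 14 complex I, 4 complex II, 6 complex III, 22 complex IV and 6 complex V assembly factors were marked in both conditions. The highest folds in hypoxia were those of SDHAF4 (18.9 in hypoxia, 11.8 in normoxia), the copper chaperone gene COX17 (18.4 and 11.0) and NUBPL, an iron-sulfur cluster factor of complex I (17.4 and 11.7). Other leading genes were COX10 (15.8 in hypoxia, 11.9 in normoxia), UQCC2 (12.5 and 10.5), ATPAF1 (10.2 and 6.97) and OXA1L (7.89 and 7.57). Of 16 transcription regulators of respiratory genes, 15 were marked in both. GABPA had the highest fold of them in hypoxia (14.1, with 8.84 in normoxia), and TFAM, which encodes a mitochondrial transcription factor, the highest in normoxia (9.60, with 12.9 in hypoxia). The GABPA values are those of the peak it shares with ATP5PF. The nuclear receptor gene ESRRG was marked in neither at its gene ends but had a peak at a listed start in both.

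The coactivator gene PPARGC1A, named after its values were seen, had low folds, 3.22 in hypoxia and 3.56 in normoxia. Of 11 autosomal genes through which hypoxia acts on respiration, 9 were marked in both conditions. PDK1, the kinase that inhibits pyruvate dehydrogenase, had 10.9 in hypoxia and 6.69 in normoxia, and HIF1A had 10.9 and 8.16. MXI1, a MYC antagonist, had no peak at its gene ends but 1 at a listed start in both, and COX4I2 was the other gene marked in neither.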

How the data were processed

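H4K5ac ChIP-seq of FaDu cells was analysed, 1 library in hypoxia and 1 in normoxia, sequenced per the labels' protocols as single-end reads of 75 bp. Each library has its own peak list from the authors. MACS2, SICER and build hg38 are named in the submitters' processing notes; of versions, settings and a control the sources used here say nothing. For every peak the authors deposited the −log10 q-value and −log10 p-value, the fold (ratio) over background and a score. Deposited scores were not used. Reads at the summit and the local background were solved from fold and p-value, taking p as a Poisson tail and the fold as (reads + 1) / (background + 1). Read totals are not stated, so coverage was not scaled between libraries.

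Peaks were matched by overlap of at least 1 bp to gene ends (1000 bp either side) of RefSeq genes, with Python 3.11.15 and pandas 2.3.3; overlap calls were tested on simulated data. Start sites and promoter sequences came from the RefSeq promoter table (GRCh38.p14), which listed 71 of 89 members. Exons, introns and UTRs were not distinguished. Highest peaks are those with the highest fold. No p-values are given, since each condition had 1 library.

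The members and lists were chosen with earlier results of these data known. The genes named were the switch pairs and complex IV isoforms, the complex II and cytochrome genes, members not marked in both libraries, the highest and lowest fold per complex and library, up to 5 members with an added second end, and in the other lists the highest fold and genes not marked in both. Other named genes were chosen after their values were seen. Alternatives changed the window, overlap, threshold, list length, gene end and span. The results of 1 gene among the members are not reported here.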

Additional observations from a re-analysis of the deposited data

How the results depend on the processing

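Of 174 values recomputed under 10 alternatives, of which 8 were planned, 159 stayed within 1.5 times or were unchanged and 15 moved. The status of COX4I1, COX4I2, NDUFA4 and NDUFA4L2 was unchanged under every alternative. The number of genes of each complex marked in both libraries stayed within 1.5 times but was not constant. For complex IV it was 13 as reported, 10 with strong peaks alone, and 15 over whole gene spans or with listed starts added. For complex II it was 4 as reported and 3 with strong peaks alone. Members marked in hypoxia only, 2 as reported, numbered 4 with a 2000 bp window, 1 with the summit in the window, 4 with strong peaks alone (SDHB, ATP5IF1, COX8C and NDUFB10) and 1 (COX6A2) at equal list length, where 1 member (COX7A1) was marked in normoxia only. Members marked in neither, 8 as reported, numbered 5 with a 2000 bp window, 3 over whole gene spans and 4 when listed starts were added. Members marked at both ends, 23 in hypoxia and 7 in normoxia as reported, numbered 14 and 4 with a 500 bp window, 45 and 26 with 2000 bp, and 3 and 1 with strong peaks alone. At equal list length the hypoxia count was 7 (8.64% of members of that span, against 10.8% of all genes). Of the alternative counts given here, only those of both ends at equal list length were set beside all genes. The others therefore cannot be read as high or low for the members. Both-end counts are not defined for starts or whole spans. Listed starts and the removal of readthrough genes were added after the data were seen. No paired analysis was possible because each condition had 1 library. With 1 library each, leaving out a library gives no value.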
